A study of Mus musculus with 9 samples.

Results

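The comparison concerns the loss of the second Foxo1 allele in germinal center (GC) B cells of the mouse. It sets KO mice (FOXO1f/f, Cg1-Cre) against HET mice (FOXO1f/+, Cg1-Cre). Arrays were chosen by the genotype label alone, and they are 6 of the 9 arrays of the series, 3 KO and 3 HET. The other 3 arrays are WT (FOXO1+/+, Cg1-Cre); they give the level with both alleles intact and share in the estimate of the spread. All animals carried Cg1-Cre, so Cre was present on both sides, and each KO and HET animal had at least 1 floxed allele. The mice were 10 weeks old and received sheep red blood cells at day 0 and again at day 5. Splenic GC B cells were sorted at day 12 as B220hi, PNAhi and CD95hi cells. The labels give 1 animal per array, whereas the design text mentions pools of splenic mononuclear cells. Cg1-Cre acts in B cells that have responded to antigen, so a sorted sample can hold cells in which recombination was incomplete, and an array cannot tell these from recombined cells. Neither sex nor litter is on the labels.

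FOXO1 is a forkhead transcription factor of the PI3K pathway. When PI3K is active, the kinase AKT phosphorylates FOXO1 and it leaves the nucleus; when PI3K signaling is low, FOXO1 stays on its target genes. The GC has a dark zone, where B cells divide and mutate their antibody genes, and a light zone, where they take up antigen and receive help from T cells. FOXO1 is best known in GC B cells for the dark zone program, and in other B cells for control of homing receptors and of the choice between follicular and marginal zone fates.

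Values are MAS5 signals, which are linear intensities, and differences are given as KO minus HET in log2(signal + 2.09). Array-to-array correlations of log2 signals lay between 0.984 and 0.988 within the HET or KO group and between 0.975 and 0.981 across these groups. The median signal was 44.0 to 45.0 on HET arrays, 42.9 to 44.8 on WT arrays and 47.4 to 48.0 on KO arrays. RNA quality was read from the log2 ratio of 3' to 5' control probe sets. For Actb it was 1.17 ± 0.068 in HET and 1.19 ± 0.068 in KO (SD, n = 3; two-sided exact permutation p = 0.8), and for Gapdh 0.691 ± 0.026 and 0.727 ± 0.020 (SD, n = 3; exact permutation p = 0.2, where 0.1 is the smallest possible). Xist signal, which is high in cells of females, was high on 1 HET and 2 KO arrays and low on 2 HET arrays and 1 KO array. The GC markers Bcl6 and Fas were high in both groups. Fas was part of the sort, so its level is no separate check of the GC label. Bcl6, the master repressor of the GC program, read 8924, 9213 and 9063 on the HET arrays and 9214, 9685 and 9229.7 on the KO arrays, and Fas, the CD95 of the sort, read 3498, 3030.5 and 3186 and 3662, 3752 and 4162.

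Foxo1 itself comes first, as the check of the labels. The brightest of its 4 probe sets read 5432, 5299.9 and 5616 on the WT arrays, 3632, 3581 and 3479.5 on the HET arrays and 983, 1392 and 727 on the KO arrays. Every KO array lay below every HET array, and every HET array lay below every WT array. The KO mean was 29.0% of the HET mean, a log2 fall by 1.83 (SE 0.16, adjusted p = 2.89e-05). Probe sets 2 and 3 gave 29.4% and 28.7%. The dimmest read 65.7, 91.3 and 78.4 in HET and 71.7, 54.6 and 81.4 in KO, so that HET and KO overlapped. Its WT arrays read 44.0, 53.1 and 55.6, under all its HET arrays. HET stood at 65.4% of WT on the brightest probe set, at 59.9% and 55.5% on probe sets 2 and 3, and at 154% on the dimmest. On probe sets 2 and 3 the highest HET signals (2429.6 and 479.5) stayed under the lowest WT signals (3761.5 and 774). On the brightest, that first step did not pass the limma test after adjustment over all genes (log2 difference -0.61, SE 0.16, adjusted p = 0.919). The adjusted p depends on the other genes too: in HET against WT, 432 (4.18%) had an unadjusted p under 0.05. The spread in that test comes from all 3 groups, and the KO arrays scattered most (signal SD 335, against 77.9 in HET and 159 in WT). Among KO arrays, the array with the least Foxo1 (727) and the one with the most (1392) differed by more than the HET arrays did. In bulk samples, fewer cells with Foxo1 RNA and less Foxo1 RNA per cell cannot be told apart. Where these probe sets lie with respect to the deleted segment is not analysed here, and a probe set outside it would not report the deletion.

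**Figure D1:**
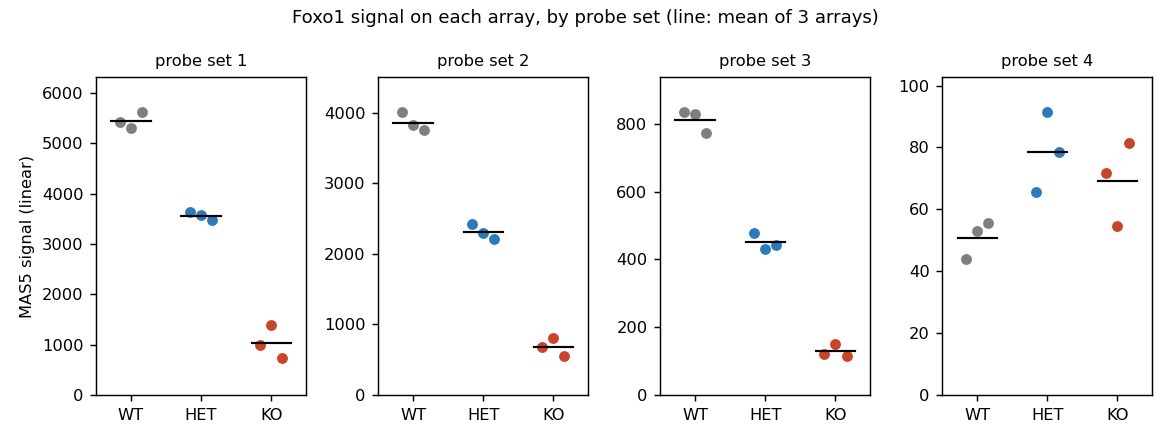
MAS5 signal (linear axis from 0) of the 4 Foxo1 probe sets on each WT, HET and KO array; points are arrays and lines are means of 3 arrays. On probe sets 1 to 3 the KO points lie below all HET points, with KO means of 29.0%, 29.4% and 28.7% of HET. On probe set 4 the KO points overlap with both HET and WT, and all HET points lie above all WT points.

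Over all genes, many more transcripts passed the test at the second step than at the first. Of 10331 genes tested, 929 passed an adjusted p of 0.05 in KO against HET (8.99%), 471 higher in KO (4.56%) and 458 lower (4.43%). Of these, 174 differed by more than 2-fold (1.68%), 95 upward (0.92%) and 79 downward (0.765%). The KO and HET arrays did not overlap for 2857 genes (27.7%), among them 927 of the 929 called (8.97%). The median difference among called genes was 0.53 in size, against 0.13 in size over all genes tested and a median standard error of 0.10; with sign, the median over all genes was 0.010. In HET against WT, 1 gene passed (0.00968%; 432 or 4.18% at an unadjusted p under 0.05), and it was Gm34303, the neighbour of Foxo1 described further on. KO against WT gave 1232 (11.9%); it shares its KO arrays with the main comparison. When each array was centred on its own median, which is higher in KO, the split of the calls moved from 50.7% upward to 21.4% upward (294 higher, 1078 lower), and the median over all genes moved to -0.087. The balance of rises and falls in number is therefore given only for the deposited scale, and small differences below are named with that shift in mind.

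Arrays of high and of low Xist were present in both genotypes. Each comparison within high or within low Xist has 1 array in 1 of its groups, so it gives values with no test. Foxo1 differed by -1.57 among the arrays of high Xist and by -2.31 among those of low Xist, and Bach2 by -1.11 and -1.12. With a term for Xist in the model, 873 genes were called. Leaving out HET replicate 2 or HET replicate 3 lowered the 929 calls to 543 and 606.

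**Figure D2:**
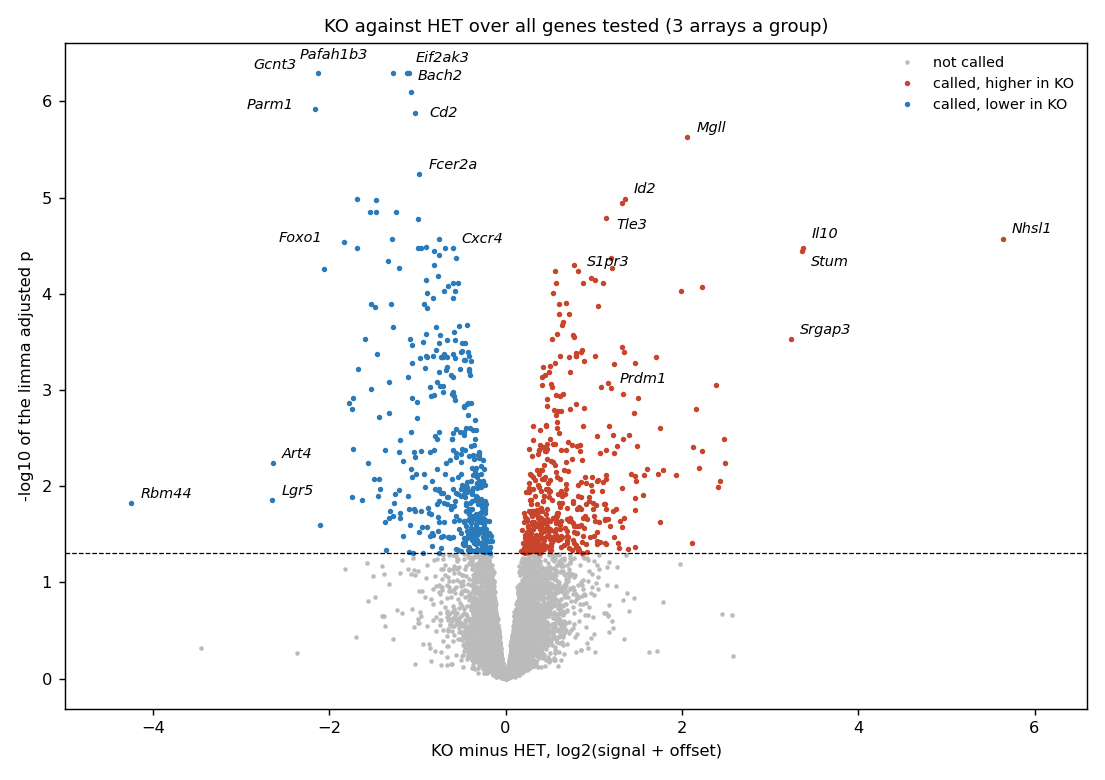
KO minus HET in log2(signal + offset) on the x axis against -log10 of the limma adjusted p on the y axis for the 10331 genes tested; red genes are called higher in KO (471), blue genes lower (458), and the dashed line marks an adjusted p of 0.05. Pafah1b3, Bach2, Eif2ak3 and Gcnt3 sit at the top left, Mgll at the top right, and Nhsl1 and Rbm44 at the far ends, where the fitted values rest on signals below the array median and are not measured sizes.

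A forkhead motif was looked for in promoters, since FOXO1 binds such sequences. The letters GTAAACA and their reverse complement TGTTTAC were searched on both strands in 300 bases around each RefSeq start of GRCm38.p6 (250 before to 50 after). These letters are one form of a wider forkhead motif, and other forkhead factors bind them too. A match was present in 1199 of 32851 promoters in the table (3.65%), where each promoter is counted. The other shares count genes, with a match in any promoter of the gene, and so differ in unit. Of 8453 tested genes with a promoter, 271 had a match (3.21%). Among genes lower in KO a match was present in 18 of 374 (4.81%), and among genes higher in KO in 9 of 372 (2.42%). The windows below are shown for some called genes described in this report whose promoters hold the letters, 3 lower and 2 higher in KO. They were picked, not found by a scan of all described genes, so their numbers are no count of matches. Each is 100 bases, read 5′ to 3′ on the strand of the gene, with the motif in capitals.
Selenop (chr15:3270877-3270976, + strand): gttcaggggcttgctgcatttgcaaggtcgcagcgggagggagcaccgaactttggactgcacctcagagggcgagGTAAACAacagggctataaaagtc
Ltb (chr17:35194337-35194436, + strand): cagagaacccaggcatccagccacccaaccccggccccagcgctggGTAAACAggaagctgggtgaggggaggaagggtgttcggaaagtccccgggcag
Akt1 (chr12:112674992-112675091, - strand): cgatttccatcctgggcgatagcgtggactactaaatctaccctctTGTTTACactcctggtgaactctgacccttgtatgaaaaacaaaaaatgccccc
Prdm1 (chr10:44458899-44458998, - strand): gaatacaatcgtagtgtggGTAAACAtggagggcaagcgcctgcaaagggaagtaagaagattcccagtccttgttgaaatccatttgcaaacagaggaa
Mgll (chr6:88724162-88724261, + strand): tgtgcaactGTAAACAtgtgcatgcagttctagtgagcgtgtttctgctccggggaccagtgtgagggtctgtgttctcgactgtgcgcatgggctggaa
The motif begins 24 bases before the start in Selenop, 124 in Ltb, 161 in Akt1, 231 in Prdm1 and 241 in Mgll. Selenop, which encodes the plasma selenium carrier selenoprotein P, read 3563, 3345 and 4341 in HET and 1305, 1828 and 993 in KO. All KO arrays lay under all HET arrays, and the transcript fell by 1.48 (SE 0.17, adjusted p = 0.000138). Its HET arrays also lay under its WT arrays, which read 4933, 4913 and 5260.5, without passing the test of that step (log2 difference -0.43, adjusted p = 0.998). The other 4 are described with their groups. A match describes letters in a window; binding was not measured here.

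Of the 10 genes with the smallest unadjusted p, chosen after their values were seen, all but Mgll fell; Id2, the next gene, rose and has the same adjusted p as the last of the 10. Pafah1b3, a catalytic subunit of platelet-activating factor acetylhydrolase, read 3419, 3449.8 and 3563 on the HET arrays and 1390.4, 1410.2 and 1513 on the KO arrays. The KO arrays formed a tight group far under the HET arrays, with a fall by 1.27 (SE 0.067, adjusted p = 5.07e-07) and a HET minus WT difference of -0.012. Eif2ak3, which encodes the stress kinase PERK, read 3514, 3364 and 3345 in HET and 1594, 1512 and 1662 in KO. It too kept its WT level in HET (difference -0.0004) and then fell by 1.10 (SE 0.058, adjusted p = 5.07e-07). Bach2, a transcriptional repressor that holds back plasma cell differentiation, read 7987, 7917 and 7876 in HET and 3397, 3902 and 3657 in KO. Every KO array was far under every HET array, and Bach2 fell by 1.12 (SE 0.061, adjusted p = 5.07e-07).

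Mprip, a partner of myosin phosphatase, read 2439, 2460.5 and 2366 in HET and 1166, 1150.5 and 1122 in KO, a fall by 1.08 (SE 0.062, adjusted p = 7.94e-07) with no overlap. Cd2, an adhesion receptor that binds CD48, read 2682, 2664 and 2694 and 1348, 1314 and 1272. The 3 HET arrays of Cd2 lay almost on one another, well over all KO arrays, and it fell by 1.03 (SE 0.064, adjusted p = 1.32e-06). Ifit1bl1, a member of the family of interferon-induced proteins with tetratricopeptide repeats, read 1921, 2031 and 2162 in HET and 636, 771 and 515 in KO. It fell by 1.68 (adjusted p = 1.03e-05), while no gene of the interferon list passed the test. Mgll, which encodes monoacylglycerol lipase, read 249.5, 279 and 299 in HET and 1346, 941 and 1216 in KO. Each KO array stood more than 3 times over the highest HET array, a rise of 2.06 (SE 0.13, adjusted p = 2.37e-06).

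Of the largest falls beside Foxo1, several were in genes of moderate signal. Parm1, a mucin-like membrane protein, read 2035, 1845 and 1545 in HET and 348, 383 and 481 in KO. Every KO array was far under every HET array, and it fell by 2.16 (SE 0.13, adjusted p = 1.2e-06). Gcnt3, a glycosyltransferase that branches mucin-type sugars, read 1347, 1208 and 1020.0 in WT, 1556, 1748 and 1444 in HET and 336, 398 and 349 in KO. The HET arrays were the highest of the 3 groups and the KO arrays the lowest, with a fall by 2.13 (SE 0.11, adjusted p = 5.07e-07). Zkscan16, a zinc finger protein, fell by 2.05 from 275, 317 and 339 to 57.1, 95.4 and 70.7 (adjusted p = 5.51e-05). Pde2a, a phosphodiesterase that breaks down cyclic nucleotides, fell by 1.74 (adjusted p = 0.00158); with shared-suffix probe sets left out, its adjusted p was 0.057. The 3 KO arrays of Pde2a, at 297, 184 and 111, were further apart than its HET arrays, at 663, 537 and 647.

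The other large falls were in dim genes, for which the log2 difference rests on KO signals that mostly lie below the array median. Lgr5, a receptor for R-spondins, read 107, 74.7 and 61.9 in HET and 1.62, 21.0 and 23.5 in KO. Its KO arrays were all below their array's median, so the KO level is only bounded, and Lgr5 was at least 1.63-fold lower (fitted difference -2.65, adjusted p = 0.014, lost without HET replicate 1). The bound sets the mean log2 value of the brighter group against that of the dim arrays, each taken at its array's median where the signal lies below it. Art4, an ADP-ribosyltransferase family member, and Adgb, which encodes androglobin, were at least 1.04-fold and 1.54-fold lower (adjusted p = 0.00574 and 0.00138). Rbm44, an RNA-binding protein, read 161, 225 and 151 in HET and 80.5, 1.62 and 0.643 in KO, so that KO replicate 1 stood apart from the other 2 KO arrays, which were below their array's median. Its fitted difference of -4.24 (SE 0.95, adjusted p = 0.0151) was lost without HET replicate 2 and without KO replicate 2. Fbxw13, an F-box protein, read 52.4, 27.6 and 28.7 and 8.34, 1.57 and 14.4, below the median on 2 HET arrays and all 3 KO arrays, so that no size is given (adjusted p = 0.0253), and that call was lost in 5 of 18 alternatives, among them leaving out HET replicate 2, HET replicate 3 or KO replicate 2.

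Most of the largest rises started from signals below the array median in HET. Il10, the anti-inflammatory cytokine interleukin 10, read 20.0, 25.6 and 24.9 in WT, 14.1, 21.6 and 11.1 in HET and 219, 172 and 142 in KO. Its HET arrays were all dim and its KO arrays all clearly above them, at least 3.81-fold higher (fitted difference 3.37, SE 0.31, adjusted p = 3.38e-05). Nhsl1, a regulator of the actin-based cell edge, read 3.41, 14.7 and 1.49 in HET and 472, 304 and 281 in KO, at least 7.41-fold higher (adjusted p = 2.68e-05). Stum and Srgap3, the latter a GTPase activator of Slit and Robo signaling, were at least 6.62-fold and 3.03-fold higher (adjusted p = 3.62e-05 and 0.000297). The KO arrays of Stum read 299, 245 and 389.6 and those of Srgap3 164, 139 and 118, against HET arrays of 17.2, 30.7 and 40.1 and 17.5, 7.66 and 15.4. Oosp2 and Iqsec2, an ARF exchange factor, were at least 1.70-fold and 3.03-fold higher (adjusted p = 0.00576 and 0.0043). Nhsl1, Il10, Stum, Srgap3, Oosp2 and Ackr3 reached the array median on KO arrays only; a gene that enters the test this way had to differ, so the size of these rises is a description.

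Anxa9, an annexin, differed between the steps in direction. It read 49.6, 46.5 and 50.6 in WT, 7.18, 19.0 and 10.9 in HET and 58.4, 64.3 and 87.1 in KO. The HET arrays were the low ones, all below their array's median. The WT arrays lay a little above theirs, near the KO arrays. KO stood at least 1.53-fold over HET (adjusted p = 0.000882). The fitted HET minus WT was -1.90 (adjusted p = 0.233), and the test of the difference between steps gave an adjusted p of 0.00483. Both rest on HET signals below the median, so the first step has no measured size. Npr2, a natriuretic peptide receptor, read 24.1, 82.1 and 37.0 in HET and 213, 537 and 115 in KO. Its KO arrays did not overlap with HET but were widely spread, with KO replicate 2 highest. HET replicates 1 and 3 lay below their array's median, so the fitted difference of 2.44 (SE 0.49, adjusted p = 0.00892) is not a measured size. Rai2 read 90.0, 78.8 and 66.1 and 447, 533 and 314, with WT replicate 3 far under the other WT arrays (difference 2.41, adjusted p = 0.0103); robust variance estimation ended that call.

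**Figure D3:**
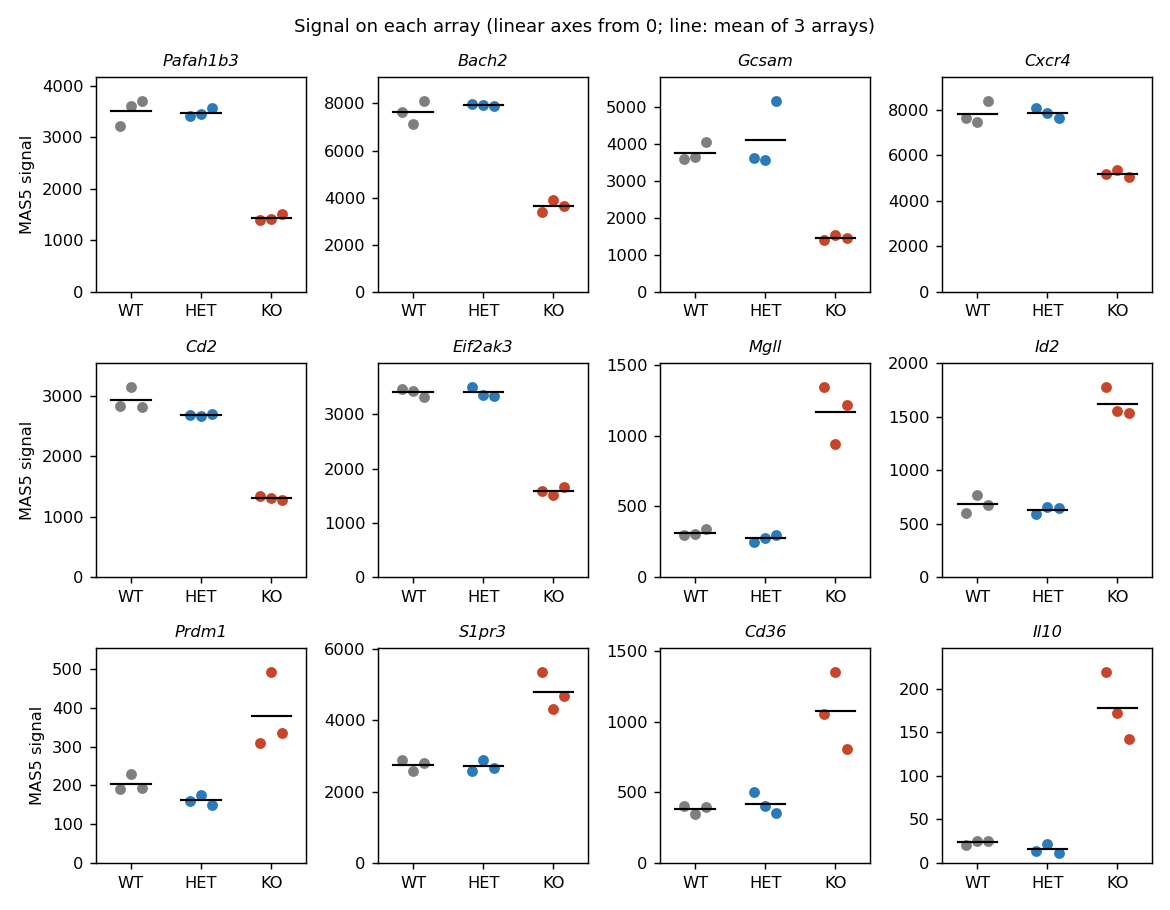
MAS5 signal on each array for 12 genes, on linear axes from 0, with WT, HET and KO on the x axis; points are arrays and lines are means of 3 arrays. In each panel the KO points lie apart from all HET points, below them for Pafah1b3, Bach2, Gcsam, Cxcr4, Cd2 and Eif2ak3 and above them for the other 6.

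Genes are grouped below by lists for the cell type and pathway, 34 lists in all, of which 530 genes were tested and 105 called (49 higher, 56 lower). Each list's count is read against 4.56% higher and 4.43% lower over all genes, and its median against 0.010. No test was made of a list as a whole.

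The dark zone list had the highest share of falls among lists with at least 5 tested genes. Of 16 tested genes, 8 were lower in KO and 1 was higher, and the median difference was -0.29; the 8 lower calls were also made with any array left out. Cxcr4, the chemokine receptor that draws B cells into the dark zone, read 7626, 7445 and 8384 in WT, 8082, 7844 and 7629.8 in HET and 5160.1, 5350.3 and 5036 in KO. WT and HET overlapped, every KO array was lower, and Cxcr4 fell by 0.60 (SE 0.054, adjusted p = 3.34e-05). Gcsam, a GC adaptor protein that restrains migration, read 3630.2, 3558 and 5170.1 in HET, with HET replicate 3 above the others, and 1398, 1545 and 1452 in KO. It fell by 1.47 (SE 0.12, adjusted p = 1.41e-05). Bach2 and Pafah1b3, given above, are members, as are Myl4, a myosin light chain (difference -0.53, adjusted p = 0.000219), and Foxp1, a forkhead repressor (difference -0.47, adjusted p = 0.00276). Trib2 and Nsmce1 were lower by values of -0.42 and -0.49; without shared-suffix probe sets the first lost its call and the other changed sign (0.30, adjusted p = 0.479). Pfn2, a profilin, was the member that rose (0.48, adjusted p = 0.00928; 0.051 with eBayes without a trend).

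The light zone list did not move as a block. Of 27 tested genes, 4 were higher and 3 lower in KO, with a median of 0.097; without HET replicate 1 or KO replicate 3, 1 was lower. Irf4, a transcription factor of light zone and plasma cells, read 3148, 2961 and 2598 in HET and 4627, 5296 and 4460.4 in KO, a rise of 0.72 (SE 0.083, adjusted p = 0.000161). Cd86, a costimulatory ligand for T cells, read 2282, 2429 and 2369 and 3156, 2785 and 3326. Its KO arrays all stood over its HET arrays, with a rise of 0.38 (adjusted p = 0.00419). Lmo2, a LIM-domain protein of GC B cells, rose from 4334, 3913 and 4203 to 6038, 5904 and 6362 (0.56, adjusted p = 5.85e-05). Fcer2a, the low-affinity IgE receptor CD23, went the other way, from 2444, 2370.5 and 2523 to 1224, 1217 and 1284 (fall by 0.98, SE 0.07, adjusted p = 5.76e-06). The light zone genes Cd83, Myc and Gpr183 did not pass, with differences of -0.16, 0.14 and 0.11 (adjusted p = 0.27, 0.42 and 0.827).

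The list of AP-1, EGR and NR4A factors gave 3 falls of 18 tested genes and no rise, and its median was 0.021. The first is Bach2, which is held in that list though it is outside these families. Batf, an AP-1 factor needed for class switching, read 466, 616 and 570.1 in WT, 426, 478 and 314 in HET and 221, 286 and 164 in KO. The KO arrays lay under the HET arrays (difference -0.87, adjusted p = 0.0192), and this call was lost without HET replicate 1, HET replicate 2 or KO replicate 3. Egr2, induced by antigen receptor signaling, differed by -0.76 (adjusted p = 0.0237) and lost its call without HET replicate 1, KO replicate 1 or KO replicate 3. Jun read 46.7, 86.8 and 85.5 in HET and 106, 138 and 128 in KO and did not pass (adjusted p = 0.0832), although its groups do not overlap.

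Receptors for positioning and migration went both ways. Of 24 tested genes, 6 were higher and 3 lower in KO, with a median of 0.071; without KO replicate 1, 3 were higher. Beside Cxcr4, S1pr4 fell, from 426, 396 and 389.9 to 215, 196 and 287 (-0.81, adjusted p = 0.00419), and so did Ltb, the lymphotoxin subunit that maintains follicular architecture. Ltb read 1091, 1001 and 971 in HET and 637, 669 and 714 in KO, a fall by 0.60 (SE 0.085, adjusted p = 0.00074). Among the receptors that rose, S1pr3, a sphingosine 1-phosphate receptor typical of marginal zone B cells, read 2574, 2899 and 2651 and 5356, 4321 and 4684. Every KO array stood far over the HET arrays, and it rose by 0.82 (SE 0.081, adjusted p = 5.85e-05). Cxcr5, which guides B cells to follicles and the light zone, rose from 1932, 1789 and 1770.5 to 2423, 2418 and 2337 (0.39, adjusted p = 0.00262). Rgs10, a brake on G protein signaling, rose from 2886, 2638 and 2415 to 4476, 3586 and 4458 (0.65, adjusted p = 0.0011). Ackr3, a scavenger receptor for the CXCR4 ligand CXCL12, was below the median in HET at 10.1, 3.73 and 13.2 and read 70.0, 48.4 and 50.1 in KO, at least 1.24-fold higher (adjusted p = 0.00325). It reached the array median on KO arrays only, so this rise too is a description. The FOXO1-dependent exit receptor S1pr1 was dim and did not pass, with 52.2, 41.4 and 57.5 in HET and 50.5, 34.9 and 68.4 in KO (adjusted p = 0.988).

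Genes known as FOXO1 targets in lymphocytes and other cells gave 5 falls and no rise of 25 tested genes, with a median of -0.11; 8 were lower when arrays were centred on the median. Cxcr4 is 1 of the 5. Cdkn1b, the cell cycle inhibitor p27, read 1069, 1349.6 and 1248 in HET and 967, 858 and 841 in KO (difference -0.45, adjusted p = 0.0131, lost without HET replicate 2). Trp53inp1, a stress-response protein, read 6475, 6246 and 5914 and 4609, 5406 and 4898, a fall by 0.32 (SE 0.064, adjusted p = 0.00798). Pdk1, the kinase that inhibits pyruvate dehydrogenase, and Insr, the insulin receptor, differed by -0.47 and -0.76 (adjusted p = 0.012 and 0.0497). The Insr call was lost in 14 of 23 alternatives, and that of Pdk1 when probe sets were averaged (adjusted p = 0.259). Klf2 and Bcl2l11, the latter encoding the death protein BIM, did not pass (differences -0.03 and -0.24, adjusted p = 0.939 and 0.0555). Il7r, Rag1, Rag2 and Ccr7 were too dim to be tested.

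The paralogs Foxo3 and Foxo4 did not pass the test. Foxo3 read 2246, 2051 and 1896 in HET and 2029, 2028 and 2149.6 in KO, and Foxo4 811, 671 and 677 and 788, 899.5 and 789 (adjusted p = 0.971 and 0.245). For each gene the HET and KO arrays overlapped.

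In the PI3K, AKT and mTOR list, 4 of 27 tested genes were lower and 1 higher, with a median of 0.051. Eif4ebp1, a translation repressor that mTOR inactivates, read 1082, 1275 and 1182 in HET and 736, 722 and 839 in KO, a fall by 0.62 (SE 0.088, adjusted p = 0.000706). Akt1, the kinase upstream of FOXO1, read 2782, 2849.6 and 2790.3 and 2439, 2247 and 2119.9. Its KO arrays lay under its HET arrays (difference -0.31, adjusted p = 0.00969), but averaging its probe sets ended the call (adjusted p = 0.475). Pdpk1, the kinase that activates AKT, differed by -0.25 (adjusted p = 0.027) and lost its call in 7 of 23 alternatives, among them leaving out any 1 HET array or KO replicate 1. Pik3ap1, an adaptor that couples the antigen receptor to PI3K, rose from 2079.5, 2242 and 2247 to 2730.2, 2911 and 2748 (0.35, adjusted p = 0.00678; 0.0579 with probe sets averaged). Without HET replicate 1, 2 or 3, or without KO replicate 1, 2 genes of the list were lower.

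In the B cell receptor signaling list, 5 of 31 tested genes were higher in KO and none lower, with a median of 0.097. This count depended on the scale: with arrays centred on the median it was 2 higher and 3 lower, with quantile normalization 11 higher, and with 1 array left out 3 to 6 higher and up to 2 lower. Themis2, an adaptor of antigen receptor signaling, was the member with a large difference. It read 988, 1422 and 1177 in HET and 2086, 2498 and 2040.0 in KO, a rise of 0.89 (SE 0.12, adjusted p = 0.000503).

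Among GC identity genes, 3 of 23 tested were higher and 3 lower, with a median of 0.024. Centring arrays on the median gave 1 higher and 6 lower, and leaving out HET replicate 2, HET replicate 3, KO replicate 2 or KO replicate 3 left 1 higher. The falls were Gcsam, Hdac9, a histone deacetylase that read 2421, 2418 and 2046 in HET and 1117, 1272 and 1333 in KO (fall by 0.89, adjusted p = 9.81e-05), and Neil1, a DNA glycosylase. Neil1 read 6366, 6159.8 and 5909 and 4812, 4194 and 4377, a fall by 0.46 (SE 0.058, adjusted p = 0.000325). The rises were Lmo2, Fas (0.25, adjusted p = 0.0351) and Ebf1, an early B cell factor (0.24, adjusted p = 0.0337). The calls of Fas and Ebf1 were lost when arrays were centred on the median, among other settings. Bcl6 did not pass, with a difference of 0.048 (SE 0.079, adjusted p = 0.769).

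Marginal zone B cell genes had the highest share of rises among lists with at least 5 tested genes. Of 19 tested genes, 11 were higher in KO and none lower, with a median of 0.59; 6 were higher without HET replicate 2 and 7 without KO replicate 1. Plac8 read 431, 522 and 485 in HET and 1548, 1014 and 911 in KO, with KO replicate 1 the highest. It rose by 1.23 (SE 0.17, adjusted p = 0.000541). Cd36, a scavenger receptor for lipids, read 500.3, 402 and 351 and 1057, 1350.5 and 809, a rise of 1.34 (SE 0.17, adjusted p = 0.000405). Cr2, the complement receptor CD21, read 3184, 3449.8 and 2936 and 5105, 4524 and 4739.5, a rise of 0.59 (SE 0.071, adjusted p = 0.00026). The KO arrays lay over the HET arrays for all 3 genes. Cd9 and Cd1d1 differed by 0.91 and 0.91 (adjusted p = 0.0202 and 0.0152), and both calls were lost without HET replicate 2, among other settings. The scavenger receptor Marco, typical of marginal zone macrophages, was too dim to be tested. Macrophages also carry Cd36, and the tested myeloid markers given below had a median of 0.75; their part in the marginal zone counts was not tested.

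Notch signaling directs B cells to the marginal zone, and its list gave 4 rises of 18 tested genes and no fall, with a median of 0.11. Notch2, Dtx1 and Hes1 are also in the marginal zone list. Hes1, a repressor induced by Notch, read 51.8, 45.5 and 49.8 in HET and 149, 107 and 147 in KO. All KO arrays exceeded all HET arrays, and it rose by 1.40 (SE 0.24, adjusted p = 0.00296). Dtx1, a ubiquitin ligase induced by Notch2, read 1336, 1218 and 1277 and 1797, 1632 and 1821, a rise of 0.45 (adjusted p = 0.00233; 0.078 without shared-suffix probe sets). Nrarp, a feedback inhibitor of Notch, read 133, 109 and 99.9 and 214, 175 and 314 (1.00, adjusted p = 0.0151), and its call was lost without HET replicate 2, HET replicate 3 or KO replicate 3. The receptor Notch2 differed by 0.26 (adjusted p = 0.0258) and lost its call in 8 of 23 alternatives. Without HET replicate 2 or HET replicate 3, 2 members were higher.

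Naive and follicular B cell genes gave 7 falls and 2 rises of 16 tested, with a median of -0.21; without KO replicate 2 there were 4 falls. Beside Fcer2a, Bach2 and Foxp1, the falls included Satb1, a chromatin organizer, which read 1644, 1528 and 1628 in HET and 1017, 870.3 and 1069 in KO. It fell by 0.70 (SE 0.091, adjusted p = 0.00042). Cd55, which protects cells from complement, read 242, 222 and 236 and 184, 97.8 and 94.2 (difference -0.96, adjusted p = 0.0182), a call lost without HET replicate 1, HET replicate 3, KO replicate 2 or KO replicate 3. Il4ra and Btla differed by -0.45 and -0.29 (adjusted p = 0.0258 and 0.0466); their calls were lost in 6 of 22 and 13 of 23 alternatives, and Il4ra changed sign when probe sets were averaged. The 2 rises were Cxcr5 and Cr2.

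Plasma cell genes gave 10 rises and no fall of 23 tested, with a median of 0.28, and 7 to 10 rises with any 1 array left out. Prdm1, which encodes BLIMP1, the repressor that starts plasma cell differentiation, read 191, 229 and 193 in WT, 159.5, 176 and 149.6 in HET and 310.2, 492 and 335 in KO. HET arrays were the lowest and KO arrays the highest, with a rise of 1.19 (SE 0.17, adjusted p = 0.000965). Slpi, a secreted protease inhibitor, read 5314, 4522 and 5076 in HET and 8000.4, 8066 and 9411 in KO, a rise of 0.77 (SE 0.094, adjusted p = 0.000282). Tnfrsf13b, the BAFF and APRIL receptor TACI, rose from 3233, 2922 and 3131 to 4145, 3941 and 4269.5 (0.41, adjusted p = 0.000882). Sdc1, the plasma cell surface marker CD138, was higher in KO (0.93, SE 0.22, adjusted p = 0.022), and its call was lost without HET replicate 2, KO replicate 2 or KO replicate 3. Irf4 and Il10 are further members. Il10 is counted among the 10 rises but reached the array median on KO arrays only, so its rise is a description. The secretory genes Xbp1, Jchain and Mzb1 did not pass, with values of 2672, 2743 and 2570.2 in HET and 2252, 2778 and 2759 in KO for Xbp1, and differences of -0.06 and -0.11 for Jchain and Mzb1 (adjusted p = 0.812, 0.491 and 0.373).

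In the list of folding and secretion in the endoplasmic reticulum, 3 of 25 tested genes were higher and none lower, with a median near 0 (0.00073). Hsp90b1, the chaperone GRP94, read 2231, 2152 and 2146 in HET and 2664, 3351 and 2885 in KO (0.44, adjusted p = 0.0085). Edem1, which targets misfolded glycoproteins for degradation, rose from 2803, 2603 and 2606 to 3388, 3390.4 and 3656 (0.38, adjusted p = 0.00419). Both are in the plasma cell list too. Atf6, a stress sensor, differed by 0.43 (adjusted p = 0.0295) and lost its call in 9 of 23 alternatives.

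ATF4 drives an amino acid response, and PERK, the product of Eif2ak3, is among the kinases upstream of ATF4. Whether the fall of Eif2ak3 bears on these genes was not tested. Of 23 tested genes of the ATF4 and amino acid response list, 9 were lower in KO and none higher, with a median of -0.16. Without HET replicate 1 the falls numbered 3, and without KO replicate 1 or KO replicate 2 they numbered 5. Asns, asparagine synthetase, read 2601, 2820.5 and 3037 in HET and 1628, 1656 and 1484 in KO. The groups were far apart, and Asns fell by 0.83 (SE 0.09, adjusted p = 0.000112). Chac1, which degrades glutathione, read 134, 128 and 97.6 in HET and was below the median on every KO array at 27.7, 38.2 and 38.2, at least 2.43-fold lower (adjusted p = 0.00121). Gars, glycyl-tRNA synthetase, fell by 0.30 (adjusted p = 0.00511). Psat1, Psph, Trib3, Slc1a4, Aars and Atf4 itself differed by -0.31, -0.40, -0.89, -1.04, -0.24 and -0.23 (adjusted p from 0.0139 to 0.048). Each of those 6 calls was lost without HET replicate 1, among other settings.

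Costimulatory, TNF receptor and adhesion genes gave 6 rises and 3 falls of 21 tested, with a median of 0.25. Tnfsf9, the ligand of 4-1BB, read 575, 643 and 569 in HET and 961, 1106 and 1042 in KO, a rise of 0.80 (SE 0.10, adjusted p = 0.000414). Icosl, the ligand of ICOS on T cells, rose from 4957, 4515 and 4505 to 5474, 5836 and 5925 (0.30, adjusted p = 0.00481). Cd86, Tnfrsf13b and Fas are further rises. Slamf7, a SLAM-family receptor, read 3075, 2908 and 2889 and 1710.0, 1700.0 and 1288. Its KO arrays lay under all HET arrays, and it fell by 0.93 (SE 0.10, adjusted p = 0.000128). Pdcd1lg2, the PD-1 ligand PD-L2, read 141, 106 and 142 in HET and 71.2, 47.8 and 64.9 in KO (fall by 1.06, adjusted p = 0.00798), and Cd2 was the other fall.

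Pdcd1lg2 is also a marker of memory B cells, as is Nt5e, the ectoenzyme CD73. Nt5e read 1563, 1467 and 1628 in WT, 1129.7, 1239 and 1147 in HET and 414, 505 and 356 in KO, with no overlap between any of the groups. It fell by 1.47 at the second step (SE 0.11, adjusted p = 1.05e-05), while the first step did not pass (difference -0.41, adjusted p = 0.919). Of 11 tested genes of the memory and atypical B cell list, these 2 were lower and Ccr6, a chemokine receptor, was higher (0.86, adjusted p = 0.0252; lost in 5 of 22 alternatives). Among 7 tested genes of B-1 cells, 3 were lower and 2 higher. Anxa2, a membrane-binding annexin, read 5709.6, 5420.3 and 5131 and 2943, 3294 and 3373 (fall by 0.76, SE 0.066, adjusted p = 2.68e-05). Spn, the sialophorin CD43, read 634, 581 and 415 in HET and 226, 332 and 215 in KO, a fall by 1.08 (adjusted p = 0.00272). The B-1 genes Arid3a and Ahnak went the other way (0.61 and 0.62, adjusted p = 0.0151 and 0.0252), and both calls were lost without HET replicate 2.

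Among cell cycle genes, 35 of the G2 and mitosis list were tested: 7 were lower in KO and none higher, with a median of -0.13; centring arrays on the median gave 15 lower, and leaving out HET replicate 1, HET replicate 2 or KO replicate 2 gave 3, 4 and 3. Ccna2, cyclin A2, read 6167, 5759 and 5659 in HET and 4151, 4416 and 4521 in KO, a fall by 0.43 (SE 0.055, adjusted p = 0.000402). Cdc25b, a phosphatase that opens mitosis, fell from 6170.0, 5968 and 6438 to 4527, 4818 and 4637 (-0.41, adjusted p = 0.000443). Groups did not overlap for either gene. The calls of Cenpa, Birc5, Ube2c, Nek2 and Mad2l1 were each lost in some alternatives, and Cenpa changed sign without shared-suffix probe sets (0.26, adjusted p = 0.403). Of 34 tested genes of G1 and replication, 1 was higher and 2 lower, close to the share over all genes, and Ccnd2 and Ccnd3 did not pass (adjusted p = 0.306 and 0.262). Among 18 tested inhibitors of the cycle, 1 was higher and 2 lower. Cdkn1a, the inhibitor p21, read 237, 142 and 192 in HET and 337, 296 and 557 in KO. Its KO arrays exceeded its HET arrays (1.03, SE 0.23, adjusted p = 0.0156), and that call was lost without HET replicate 2.

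Metabolic, death and repair lists were also read. Of 30 tested genes of oxidative phosphorylation 1 was lower in KO, with 11 lower when arrays were centred on the median, and of 19 glycolytic genes 3 were lower (15.8%, against 4.43% lower over all genes). Tpi1, triose phosphate isomerase, read 3982, 3958 and 4125 in HET and 3219, 2830.2 and 3327 in KO (fall by 0.37, adjusted p = 0.00476, lost without HET replicate 3), and Ldha, lactate dehydrogenase, differed by -0.23 (adjusted p = 0.0223; lost in 4 of 22 alternatives, among them without HET replicate 1, KO replicate 1 or KO replicate 2). Of 16 genes of the BCL2 family and death, 1 was higher: Bid, which links death receptors to mitochondria, rose from 6656, 6136 and 6076 to 7556, 7699 and 8200.2 (0.31, adjusted p = 0.00235; 0.0914 with probe sets averaged). Of 27 genes of class switching, hypermutation and DNA repair, Neil1 was the 1 lower gene. In the NF-kB list, 1 of 19 was higher: Tnip1, an inhibitor of NF-kB signaling, read 1608, 1768 and 1784 and 2589.6, 2290.0 and 2272 (0.47, adjusted p = 0.00413). No gene passed the limma test among 14 tested genes of MHC class II (0 at an unadjusted p under 0.05) and 20 of the interferon response (3). Their smallest adjusted p values were 0.36 for Ctss and 0.0533 for Stat2.

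**Figure D4:**
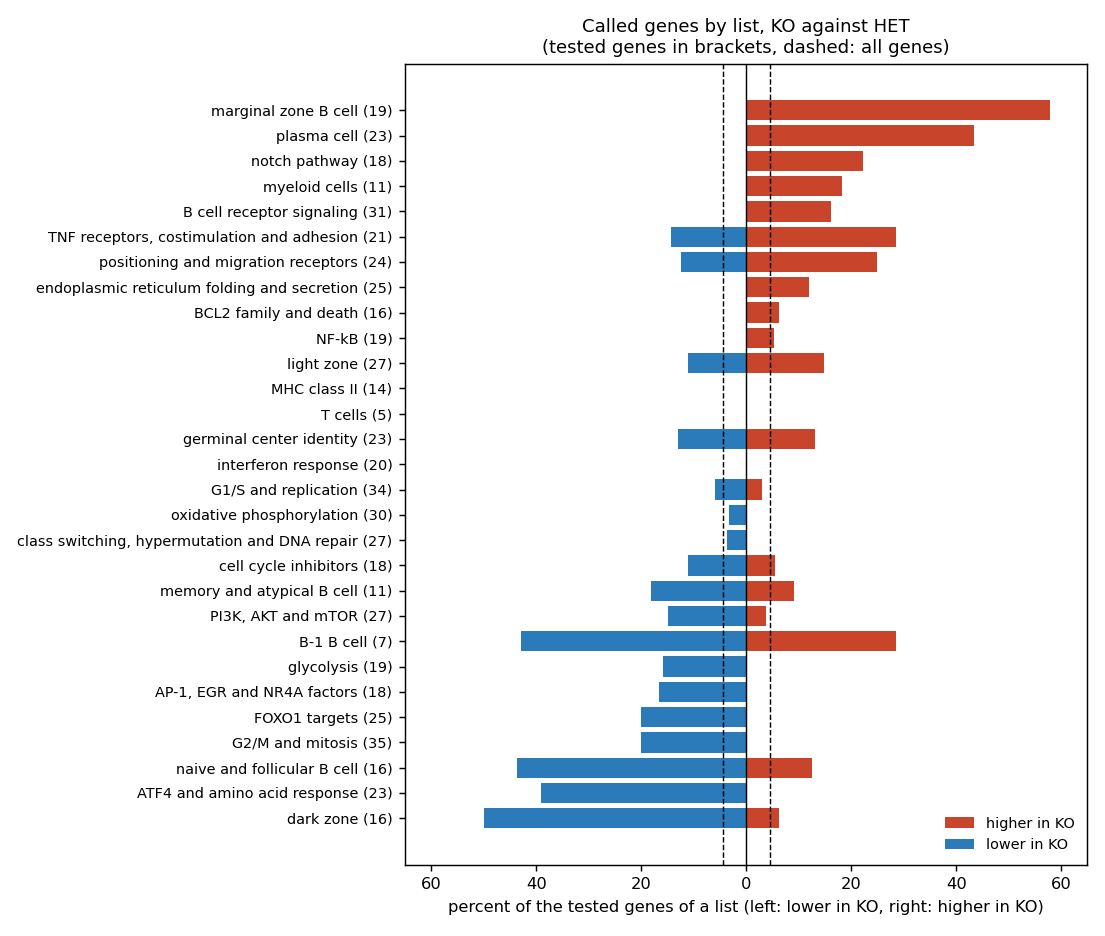
Percent of the tested genes of each list with at least 5 tested genes that were called lower (blue, left) or higher (red, right) in KO than in HET; dashed lines mark 4.43% lower and 4.56% higher over all genes, and the number tested is in brackets. The marginal zone (11 of 19) and plasma cell lists (10 of 23) have only rises, and the dark zone list (8 of 16) has the longest bar of falls.

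Other genes outside the lists stood out by adjusted p or size; they were chosen after their values were seen. Id2, which inhibits E proteins such as E2A, read 596, 657 and 648 in HET and 1782, 1549.7 and 1536 in KO. All KO arrays were more than 2 times as high as any HET array, a rise of 1.35 (SE 0.10, adjusted p = 1.03e-05). Tle3, a corepressor of the Groucho family, read 1984, 1699.8 and 1632 and 4257, 3674 and 3774, a rise of 1.14 (SE 0.094, adjusted p = 1.64e-05). Ido1, which breaks down tryptophan, fell from 341, 457 and 391 to 141, 115 and 109 (-1.69, SE 0.15, adjusted p = 3.38e-05). None of these 3 calls was lost in an alternative that tested the gene.

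Markers of other cells the gate could hold were mostly dim. Of 25 myeloid markers, 13 were below the median on every KO and HET array, among them Itgam, Cd14 and Mpo, and 11 were tested, of which 2 were higher in KO and none lower, with 1 to 4 higher when 1 array was left out (median 0.75). The summed signal of the list ran from 1209 to 3088 on HET arrays and from 2700.4 to 3602 on KO arrays, so that the groups overlapped. Cd68, a lysosomal glycoprotein of macrophages, read 343, 327 and 325 in HET and 620.2, 623 and 455 in KO, a rise of 0.75 (SE 0.13, adjusted p = 0.00372). Tyrobp, a signaling adaptor, differed by 1.04 (adjusted p = 0.0374) and lost its call in 11 of 23 alternatives. Lyz1 and Lyz2, lysozymes, did not pass (differences 1.98 and 1.37, adjusted p = 0.0652 and 0.0519). Csf1r and C1qb were highest on HET replicate 3 and KO replicate 1, respectively: Csf1r read 77.6, 77.3 and 489 in HET and 187, 332 and 179 in KO, and C1qb 149.6, 116 and 449.5 and 576, 382 and 251. The part of such cells in the Il10, Cd36 and Cd68 rises was not tested. T cell, dendritic cell, NK cell, erythroid and stromal lists had 5, 4, 1, 1 and 2 tested genes and no call by limma, with 1, 2, 0, 1 and 0 at an unadjusted p under 0.05. The T cell markers Cd3d and Cd4 were below the median on every KO and HET array.

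The neighbours of Foxo1 on chromosome 3 were also read. Gm34303, a RefSeq pseudogene and the next gene to Foxo1, read 58.9, 69.9 and 75.6 in WT, 2139, 1709.7 and 2020.4 in HET and 2393, 3200.4 and 3360.1 in KO. Its WT arrays lay a little above their array medians, and it rose in HET (4.80, adjusted p = 9.44e-10) and was higher still in KO (0.60, SE 0.14, adjusted p = 0.0188). The KO call was lost without HET replicate 2, KO replicate 2 or KO replicate 3. Mgst2, a glutathione transferase and the nearest tested gene on the other side, read 228, 238 and 219 in HET and 119, 123 and 97.5 in KO, a fall by 1.00 (SE 0.15, adjusted p = 0.00135). Of the 20 nearest tested neighbours, 10 on each side, 4 were called, 1 higher and 3 lower. On the whole of chromosome 3, 55 of 484 genes were called (11.4%), against 874 of 9847 on the other chromosomes (8.88%). Effects of the altered allele itself and of the DNA linked to it cannot be told apart from effects of FOXO1 loss for genes of this region. The called genes Cd2, Ccna2, Pfn2, Notch2, Cd1d1 and Anxa9, described above, are on chromosome 3 too. Whether linked DNA bears on them was not tested.

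Whether the second step differed from the first was tested directly, as (KO minus HET) minus (HET minus WT). The difference passed for 103 genes (0.997%; 1116 or 10.8% at an unadjusted p under 0.05). In 98 of them the second step was the larger in size, with KO higher than HET in 36 and lower in 62, and in 5 the first was larger; 102 of the 103 were also called in KO against HET. The 929 genes called in KO against HET had a median HET minus WT difference of 0.090 in size. Both steps use the HET arrays, so a HET mean that is off by chance moves them in opposite directions. For Bach2 the steps were 0.056 and -1.12 (difference of steps -1.18, SE 0.11, adjusted p = 0.000202), and for Cxcr4 0.0077 and -0.60 (adjusted p = 0.0102). Prdm1 moved by -0.33 and then 1.19 (adjusted p = 0.0336), and Mgll by -0.18 and 2.06 (adjusted p = 0.000451). For Foxo1 (-0.61 and -1.83), Selenop (-0.43 and -1.48) and Slpi (0.34 and 0.77) the steps had the same sign, and the test of their difference did not pass (adjusted p = 0.0688, 0.149 and 0.335). Nt5e, with -0.41 and -1.47, did pass it (adjusted p = 0.0238). Without HET replicate 1, 2 or 3 or WT replicate 2 the 103 genes became 45, 31, 37 and 50.

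**Figure D5:**
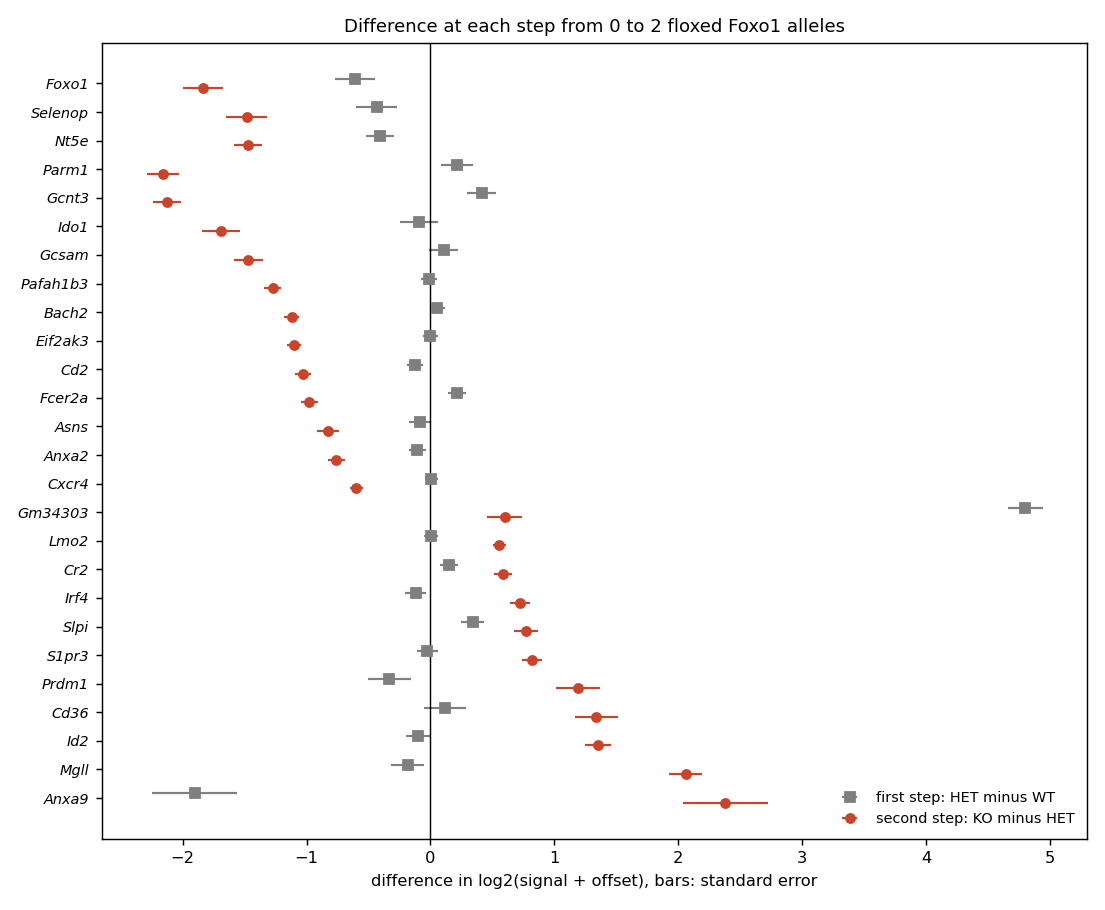
Difference in log2(signal + offset) for 26 genes at the first step (HET minus WT, grey squares) and the second step (KO minus HET, red circles), with standard errors as bars. Most squares lie near 0 and the circles away from it. Gm34303 has its large difference at the first step (4.80). Anxa9 moves down and then up, with HET signals that lie below the array median.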

How the data were processed

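GC B cell RNA of 9 mice was amplified with a NuGEN kit and hybridised to Affymetrix mouse expression arrays, per the labels' protocols. The authors deposited a linear MAS5 intensity for each probe set on each array, per the submitters' processing notes; no genome build for the table was given in the sources used here. The trimmed mean (2% at each end) was 500 on every array, so arrays were used as deposited. MAS5 sets a common mean, so a difference in the distribution of signals between groups moves small differences.

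Signals were analysed as log2(signal + 2.09), where the offset is the 10th percentile of all signals; it understates changes of dim genes. Of 45101 probe sets, 34945 had 1 gene symbol in the platform annotation, 932 several and 9160 none; 64 were controls. Probe sets at or above the array median on at least 3 of 9 arrays were kept (19479), and each gene took its brightest (10331 genes). Models were fitted on all 9 arrays with limma 3.58.1 (lmFit, eBayes with trend) in R 4.3.3; adjusted p values are limma's, two-sided, by Benjamini-Hochberg over all genes, and calls are below 0.05. The code was tested on simulated data. The precision is limited by the number of arrays. The p values rest on 1 spread per gene, estimated within groups over all 9 arrays and moderated over all genes. The scatter of any group therefore enters every comparison.

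Genes were named by a rule: Foxo1; among called genes without overlap, the 10 that rose most and the 10 that fell most (unnamed models, Xist, Tsix, Y-linked genes and antibody or T cell receptor variable segments left out); up to 4 genes per list with the smallest p; the 4 largest t for the difference of the steps; and a set of GC genes. Other genes were chosen after their values were seen: Aars, Atf4, Btla, C1qb, Cd1d1, Cd55, Cd9, Csf1r, Cxcr5, Ebf1, Eif2ak3, Foxp1, Icosl, Id2, Ido1, Ifit1bl1, Il4ra, Insr, Jchain, Mad2l1, Mgll, Mgst2, Mprip, Myl4, Mzb1, Nek2, Nsmce1, Pfn2, Psph, S1pr4, Sdc1, Selenop, Slc1a4, Tle3, Trib2, Trib3, Ube2c and Xbp1. The comparison, the 34 gene lists (691 genes, 633 with a probe set of 1 symbol) and the alternatives were chosen with earlier results of these data known. Genes without such a probe set were not analysed here. Promoter sequences are RefSeq's, matched by symbol.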

Additional observations from a re-analysis of the deposited data

Results flagged for a closer look

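The step from 1 to 2 floxed alleles differed from the step from 0 to 1 for 103 genes (limma, adjusted p under 0.05), and the 4 with the largest moderated t are given here. Pafah1b3 differed between the steps by a log2 value of -1.26 (SE 0.12, adjusted p = 0.000202), with all 3 KO arrays below all 3 HET arrays and steps of -0.012 and -1.27. Bach2 differed by -1.18 (SE 0.11, adjusted p = 0.000202), with steps of 0.056 and -1.12. Gcnt3 differed by -2.54 (SE 0.20, adjusted p = 7.92e-05), with steps of 0.41 and -2.13 in opposite directions. Gm34303, the neighbour of Foxo1, differed by -4.20 (SE 0.24, adjusted p = 4.05e-06), and it is the gene among these 4 whose first step was the larger one. With all of them the steps share the HET arrays.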

How the results depend on the processing

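Alternatives changed the scale (offset of 16, no offset, quantile normalization, median centring), the filter, the probe set of a gene, the variance model, array weights, a term for Xist, the arrays fitted (KO and HET only) and the arrays left out; testing every kept probe set (23344, of which 1302 called, 650 higher and 652 lower) was added after the data were seen. Of 133 genes called in KO vs HET among those named by the rule or chosen later, 69 were called under every alternative that tested them. Another 64 lost the call in at least 1, and 4 of the 133 changed sign in at least 1. The 133 also hold Dusp16, Ell2, Elovl6, Fkbp11, Itgal, Plscr1, Rasgrp3, Tlr3 and Tnfrsf1b. These were chosen after their values were seen and are not described above. The changes of sign were Cdc45 with probe sets averaged (0.054, adjusted p = 0.801), Il4ra with probe sets averaged (0.012, adjusted p = 0.971), Cenpa when shared-suffix probe sets were dropped (0.26, adjusted p = 0.403) and Nsmce1 likewise (0.30, adjusted p = 0.479). For KO vs HET, genes higher in KO numbered 294 and genes lower in KO 1078 with arrays centred on the median, which differs between the groups. With eBayes without trend, KO vs HET, genes lower in KO numbered 300; second step minus first step, genes called numbered 31; and gene lists, KO vs HET, held 68 calls. Leaving out 1 array gave 543 to 895 for KO vs HET, genes called, 259 to 434 for genes higher in KO, 284 to 461 for genes lower in KO and 31 to 109 for second step minus first step, genes called; these fits have fewer arrays. No paired analysis was possible because the numbers in the sample titles are not shared between genotypes and the replicate numbers follow only the order of deposition. With 3 arrays a group, dim genes have only bounds, and differences near the median standard error of 0.10 were not detectable.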
